A study of Tribolium castaneum with 2 samples.

Results

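The long runs described here were 5911 unbroken rows of at least 10 neighbouring base positions, every one of which had bisulfite reads in at least 1 of 2 replicates of red flour beetle (*Tribolium castaneum*) eggs. They were found by joining the positions listed in the tables of both replicates and keeping those in rows of at least 10 consecutive coordinates on the same assembled sequence. Together they held 69031 positions, or 0.345% of the 19983652 positions listed in either replicate. The members were chosen by the positions at which reads had been counted, so the number, length and place of the runs are given as a description, without a test.

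Whole genome bisulfite sequencing (WGBS) was done on 2 replicates of pooled, untreated eggs of 1 condition, so there was no control group. The eggs came from the GA-2 strain and were 24 to 48 h old, an age at which the embryo is developing inside the egg. They carried no transgene or other genetic change, and each pool mixed many embryos and all of their cell types, so a value is an average over the pool. The eggs were collected from 1 population of the strain, so the p-values below describe reads of these libraries.

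In WGBS, bisulfite turns unmethylated cytosine into uracil, which is read as T, whereas methylated cytosine is left as C. A read that still shows C is called unconverted here, and the non-conversion level is the percentage of unconverted reads among all reads at the positions concerned. In many insects methylation is found mainly at CpG sites, where both strands carry the mark, and Dnmt1 copies it after replication while Dnmt3 sets it anew. *Tribolium* has kept Dnmt1 and lacks Dnmt3. The tables gave a sequence name, a coordinate, and the unconverted and converted read counts, but neither strand nor the neighbouring bases. If only cytosines of either strand were listed, a run would be a stretch made up of C and G letters, and a CpG within it would appear as a pair of adjacent positions. The bases were not read here, since a genome of assembly version 3.0 was not used, and genes at the runs were not analysed here.

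Across all positions the tables held 42534665 reads in replicate 1 and 55723118 reads in replicate 2, with a mean of 2.93 and 3.38 reads per listed position. The positions used for comparison were the 10900802 isolated ones, 54.5% of the list, which had no listed neighbour 1 bp away on either side.

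Most runs were only just long enough to be counted. Exactly 10 positions were found in 2409 runs (40.8%), and 4578 runs (77.4%) had 10 to 12 positions. A further 916 runs had 13 to 15 positions and 417 had 16 or more. The median length was 11 positions, 112 runs reached 20 and 24 reached 25 positions. The longest run had 36 positions.

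The number of runs became smaller with each added position up to 22, and less steeply so from 13 to 15 positions than among the shortest runs. There were 21.7 runs of 2 positions for every 100 isolated positions and 29.2 runs of 3 for every 100 of 2. From 9 to 10 positions the share was 47.1 in 100. From 13 to 14 positions it was 63.3 in 100, and from 14 to 15 it was 64.4 in 100. Beyond 22 positions each length had 13 runs or fewer, and the numbers no longer followed an order.

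The positions just outside the threshold resembled those just inside it. Runs of exactly 9 positions numbered 5113 and had a mean of 2.72 and 3.24 reads per listed position in replicate 1 and 2. Runs of exactly 10 had 3.17 and 3.79. The non-conversion level in runs of 9 was 0.0390% in replicate 1 and 0.0432% in replicate 2. In runs of 10 it was 0.0267% and 0.0476%, on 17 and 39 unconverted reads.

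**Figure D1:**
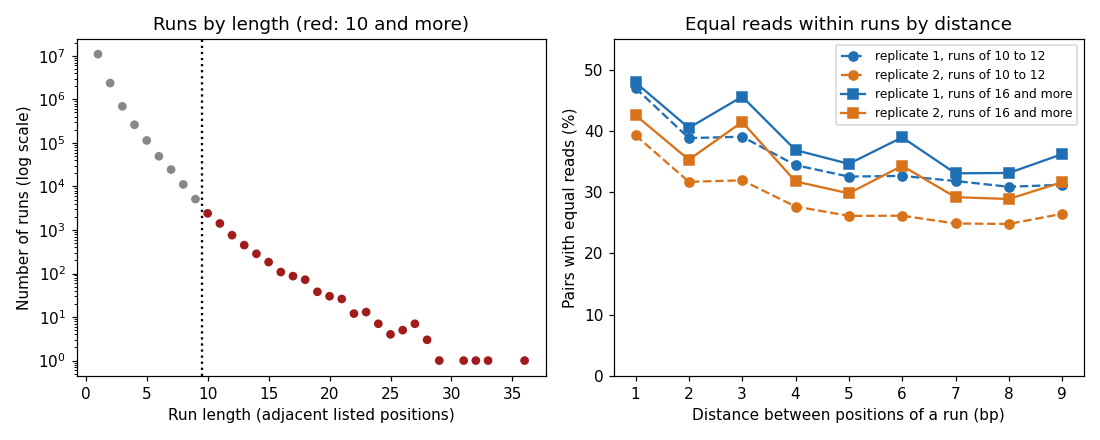
Left, the number of runs (log axis) against run length in positions, with the runs of at least 10 positions set apart. Right, the percentage of position pairs in a run that had the same number of reads in a replicate, against the distance between them in bp, for runs of 10 to 12 and of at least 16 positions: in the longer runs it was higher at 3, 6 and 9 bp than 1 bp before in both replicates, with 40.5% at 2 bp and 45.6% at 3 bp in replicate 1.

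The runs were spread over all linkage groups, which are the chromosomes of the assembly. Of the 5911 runs, 5317 (90.0%) lay on LG1=X and LG2 to LG10 and 594 (10.0%) on the sequences that have not been placed on a chromosome (LGUn). They occurred on 405 of the 2313 sequences of the list. There were 38.6 runs per Mb on the linkage groups and 26.3 on the unplaced sequences.

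The linkage groups differed in how dense the runs were. LG9 had 735 runs, or 47.5 per Mb, and 0.449% of its listed positions lay in a run. LG4 had 573 runs, or 47.4 per Mb, although its share of listed positions was lower (0.392%). The lowest density was found on LG3, with 683 runs, 23.9 per Mb and 0.251% of listed positions. These 3 autosomes mark the range, and the other autosomes had 31.5 to 44.9 runs per Mb. The X chromosome lay near the upper end, with 335 runs, 46.0 per Mb and 0.410% of its listed positions, against 38.2 per Mb and 0.355% on all autosomes.

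Within the chromosomes the runs were unevenly placed. In windows of 100 kb on the linkage groups the median was 3 runs, with quartiles of 1 and 6. No run was found in 179 of 1290 windows (13.9%), while 23 windows held at least 15. The fullest window was on LG7, from 3600001 to 3700000 of LG7_WGA122_2, with 41 runs. The next was on LG9, from 1300001 to 1400000 of LG9_WGA160_2, with 31. These windows lay on 2 of the 3 sequences with the most runs, LG4_WGA72_2 (247), LG7_WGA122_2 (235) and LG9_WGA160_2 (209), yet no sequence held as much as 5% of all runs.

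**Figure D2:**
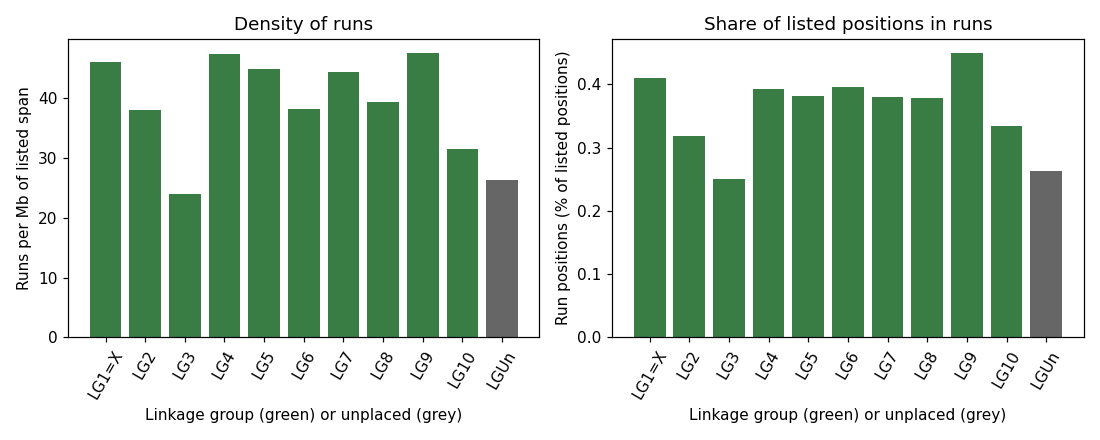
Runs of at least 10 adjacent listed positions per Mb (left) and the percentage of listed positions that lay in such runs (right), for LG1=X, LG2 to LG10 and the unplaced sequences. The bars start at 0, and the density ran from 23.9 runs per Mb on LG3 to 47.5 on LG9.

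Runs often had other runs close by. Between neighbouring runs on the same sequence the median distance was 9968.5 bases, with quartiles of 2330 and 27841 (5506 pairs). In 1060 pairs (19.3%) at most 1000 bases lay between the runs, and in 445 pairs (8.08%) at most 100. Some long runs were interrupted by very little, as 19 pairs were separated by a single unlisted base.

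The surroundings of the runs were also dense in listed positions. On the linkage groups, 29.5% of the bases 2 to 20 bp outside a run were listed, compared with 17.4% around runs of 2 to 9 positions and 15.0% around isolated positions. Beyond 100 and up to 500 bp the shares were 19.3%, 15.0% and 13.8%. The excess had nearly gone beyond 500 and up to 2000 bp, where they were 13.6%, 13.4% and 13.2%. Around the runs on unplaced sequences it reached further, with 17.2% of bases listed at that distance against 13.1% around isolated positions. Few runs on the linkage groups were near the end of a sequence: 0.150% lay within 1000 bp of the first or last listed position, against 0.272% of isolated positions. On the shorter unplaced sequences the median distance to that end was 10550 bp for runs and 16017 bp for isolated positions.

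Read depth at the listed positions of the runs was low and close to that of isolated positions. The mean was 2.77 reads in replicate 1 and 3.29 in replicate 2 (3.03 ± 0.367, SD, n = 2), and the median was 2 in both. Isolated positions had 2.86 and 3.28 reads. These similar means hid a difference between placed and unplaced sequences. On the linkage groups run positions had 2.33 and 2.80 reads and isolated positions 2.18 and 2.55. On the unplaced sequences the order was turned, with 6.54 and 7.59 reads in runs against 7.12 and 7.86 at isolated positions. On the X chromosome runs had 2.13 and 2.40 reads and isolated positions 1.93 and 2.24, fewer than the 2.35 and 2.82 of runs on the autosomes. With the reads of both replicates summed, the median was 4 at run positions and 2 at isolated positions.

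Fewer run positions than isolated positions rested on a single read, namely 34.2% against 47.2% in replicate 1 and 26.0% against 42.0% in replicate 2. At the other end, 9.66% and 16.6% of listed run positions had at least 5 reads, and 1.58% and 1.96% at least 10. The typical run position therefore gave a non-conversion level that could only be 0%, 50%, 100% or the like, and levels are given below over many positions.

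The length of the runs depended on joining the tables. Of the 69031 positions, 50515 (73.2%) were listed in both replicates, 6941 (10.1%) in replicate 1 only and 11575 (16.8%) in replicate 2 only. Among isolated positions 51.6% were listed in both. A run was listed from end to end in replicate 1 in 2112 cases (35.7%), in replicate 2 in 3006 cases (50.9%) and in both in 734 cases (12.4%). For 1527 runs (25.8%) neither table held every position, so their full length came from joining the tables. With the table of 1 replicate alone 2758 and 3637 runs were found, and with positions listed in both 1392 runs.

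Depth changed from position to position within a run. Counting positions of a run without reads as 0, the mean in replicate 1 went from 1.84 reads at the outermost position to 2.09, 2.45 and 2.54 at the next 3 positions inwards. In replicate 2 it went from 2.41 to 2.69, 3.14 and 3.26. The outermost positions were thus the thinnest in both replicates. A run ends where the next position is unlisted, so depth near its ends is tied to the rule and is a description.

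In the longest runs depth also followed a 3 bp pattern. In runs of at least 16 positions, pairs 3 bp apart had the same number of reads more often than pairs 2 bp or 4 bp apart. In replicate 1 the shares were 40.5% at 2 bp, 45.6% at 3 bp and 36.9% at 4 bp. In replicate 2 they were 35.3%, 41.4% and 31.7%. The share was higher again at 6 bp, 38.9% and 34.3%, than at 5 bp, 34.6% and 29.8%. It was also higher at 9 bp, 36.2% and 31.6%, than at 8 bp, 33.1% and 28.9%. The pattern is a description of these pairs, many of which share positions, and has no test. In runs of 13 to 15 positions it was weaker but present at 3 bp (43.3% and 36.3%) against 2 bp (40.8% and 33.7%). In runs of 10 to 12 positions the shares at 3 bp (39.0% and 31.9%) and 2 bp (38.8% and 31.7%) lay close together.

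A run of 28 positions on LG9 (251264 to 251291 of LG9_WGA162_2), chosen after its values were seen, shows the pattern directly. In replicate 1 its positions had 2, 0, 1, 2, 1, 1, 3, 1, 1, 3, 1, 1, 2, 1, 1, 2, 1, 1, 2, 1, 1, 2, 1, 1, 1, 1, 0 and 0 reads. In replicate 2 they had 0, 2, 2, 0, 3, 3, 1, 3, 3, 1, 3, 3, 1, 3, 3, 1, 2, 3, 1, 3, 3, 1, 4, 3, 1, 5, 2 and 1 reads. Positions 3 bp apart, from place 4 to place 22, were high in replicate 1 and low in replicate 2. No read was unconverted in this run in either replicate.

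Non-conversion in the runs was low in both replicates. In replicate 1, 45 of 158960 reads were unconverted, or 0.0283% (95% Wilson interval 0.0212% to 0.0379%). In replicate 2 it was 108 of 203980 reads, or 0.0529% (0.0439% to 0.0639%). The mean of the replicates was 0.0406% ± 0.0174 (SD, n = 2). Isolated positions stood at 0.0452% and 0.0654%. Runs of 2 to 9 positions had 0.0311% and 0.0477%, closer to the long runs than to isolated positions. The intervals cover counting error only, and because 1 read can pass through many positions of a run they are too narrow.

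Against isolated positions of the same depth, run positions had fewer unconverted reads in both replicates. For this comparison positions were put in 16 classes by their reads in the replicate, and the rate of isolated positions in each class gave the number of unconverted reads to be found in runs. In replicate 1 this number was 71.6 and 45 were observed, a ratio of 0.629 (95% interval 0.458 to 0.841, adjusted p = 0.00493, exact two-sided conditional test). In replicate 2 it was 134 and 108 were observed, a ratio of 0.805 (0.660 to 0.972, adjusted p = 0.0477, exact two-sided conditional test). The p-values were adjusted by the Benjamini-Hochberg method over 10 tests of this kind. Both ratios lay below 1, but 2 replicates taken as the units could not give a p below 0.5.

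Neither ratio passed the test against shorter runs. Set against runs of 2 to 9 positions, a comparison added after the data were seen, the ratio was 0.913 in replicate 1 (interval 0.666 to 1.22, adjusted p = 0.816, exact test) and 1.13 in replicate 2 (0.925 to 1.36, adjusted p = 0.653, exact test). With only the middle position of each run counted, 4 unconverted reads were observed against 7.11 in replicate 1 and 11 against 13.1 in replicate 2, and neither ratio passed the test (adjusted p = 1 for both, exact test).

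In bands of depth, run positions had the lower level in replicate 1. Within the finer classes used for matching this was not so at 7 reads (0.108% against 0.0463%) and 8 reads (0.0969% against 0.0466%), on 4 and 2 unconverted reads in runs. Run positions with a single read had a level of 0.0255% and isolated positions with a single read 0.0384%. With 2 reads they stood at 0.0188% and 0.0419%, and with 5 to 9 reads at 0.0338% and 0.0482%. In replicate 2 the order was not the same in all bands. Run positions with 1 read stood at 0.0680% against 0.0488% and those with 10 to 19 reads at 0.0991% against 0.0699%, whereas with 2 reads it was 0.0357% against 0.0610%. For 3 to 4 reads the level in runs of replicate 2 was 0.0437% against 0.0674%, and for 5 to 9 reads it was 0.0638% against 0.0714%.

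Runs on the linkage groups and runs on unplaced sequences gave different pictures in replicate 2. On the linkage groups 34 of 120128 reads (0.0283%) were unconverted in replicate 1 and 67 of 155929 (0.0430%) in replicate 2. Both were below isolated positions of the linkage groups at the same depth, with ratios of 0.633 (interval 0.438 to 0.884, adjusted p = 0.0147, exact test) and 0.653 (0.506 to 0.829, adjusted p = 0.00232, exact test). In both replicates the call was lost with the middle position of each run alone (ratios of 0.790 and 0.732, adjusted p = 1, exact test) and against runs of 2 to 9 positions (0.916 and 0.932, adjusted p = 0.816, exact test).

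On unplaced sequences, 11 of 38832 reads in runs (0.0283%) were unconverted in replicate 1 and 41 of 48051 (0.0853%) in replicate 2. Neither differed from isolated positions of unplaced sequences by the exact test: the ratio was 0.634 in replicate 1 (0.316 to 1.13, adjusted p = 0.209) and 1.30 in replicate 2 (0.933 to 1.76, adjusted p = 0.177). When runs on the linkage groups were set directly against runs on unplaced sequences, 67 unconverted reads were observed in replicate 2 where 128 were calculated, a ratio of 0.523 (0.406 to 0.665, adjusted p = 0.00493, exact test). The call was lost and the ratio turned with the middle position of each run alone (4.88, adjusted p = 1, exact test) and with runs of at least 15 positions (3.34, adjusted p = 0.742, exact test). In replicate 1 the same ratio was 0.474 (0.328 to 0.662), on 34 reads against 71.8, and did not pass the test (adjusted p = 0.394, exact test). Both intervals take the calculated number as exact and are too narrow. That number rested on only 10 unconverted reads in unplaced runs in replicate 1 and 32 in replicate 2. The unplaced runs had few reads in many depth classes, and the unmatched levels in replicate 1 were equal to 3 digits. A Mantel-Haenszel odds ratio over the same classes, added after the data were seen, was 0.712 in replicate 1 and 0.393 in replicate 2.

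Single linkage groups held too few unconverted reads to be ranked. In replicate 1 the runs of LG6 had 0 of 7812 reads unconverted, which allows up to 0.0491% by the Wilson interval, and the highest level was on LG1=X with 4 of 6673 (0.0599%). In replicate 2 the lowest was LG4 with 2 of 18399 (0.0109%) and the highest LG7 with 15 of 19835 (0.0756%). On LG7, 7 of these 15 came from 1 run, which is described below. LG1=X had 3 of 8320 reads unconverted in replicate 2, so the linkage group that was highest in replicate 1 was not so in replicate 2.

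Non-conversion did not follow the length of the runs in the same way in the replicates. In replicate 1 the level was 0.0247% in runs of 10 to 12, 0.0227% in runs of 13 to 15 and 0.0664% (interval 0.0361% to 0.122%) in runs of at least 16, the last resting on 10 of 15063 reads. In replicate 2 it was 0.0532%, 0.0547% and 0.0479%, the last on 9 of 18776. For shorter runs the level was lower than at isolated positions in every class. It was 0.0323% and 0.0506% in pairs, 0.0277% and 0.0443% in runs of 4 to 5 and 0.0295% and 0.0397% in runs of 6 to 7.

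**Figure D3:**
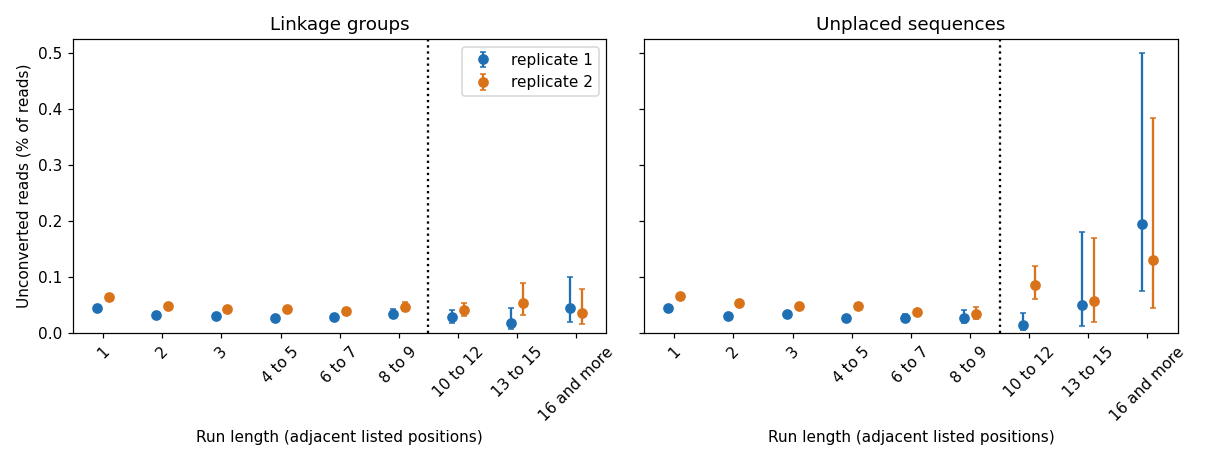
Non-conversion level in percent of reads against the length class of the run, from isolated positions (length 1) to runs of at least 16 positions, on the linkage groups and on the unplaced sequences, for each replicate. Points are levels over all reads of a class and bars are 95% Wilson intervals; on the linkage groups isolated positions lay above the runs of 10 to 12 in both replicates, while the longest classes had wide intervals.

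The position within a run made no detectable difference. The first 2 and last 2 positions of runs had a level of 0.0194% against 0.0320% further inside in replicate 1, and 0.0481% against 0.0550% in replicate 2. At matched depth the ratios of outer to inner positions were 0.604 (0.276 to 1.15, adjusted p = 0.310, exact test) and 0.871 (0.583 to 1.25, adjusted p = 0.596, exact test). The intervals would allow outer levels from well below to slightly above the inner ones. They take the calculated number as exact, although it rested on 36 and 79 unconverted reads at inner positions, and are too narrow.

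After adjustment, no run position with at least 5 reads passed a test for more unconverted reads than the overall rate of its library. A one-sided exact binomial test was applied to every listed position with at least 5 reads, with Benjamini-Hochberg adjustment over all of them. In replicate 1, 0 of 5550 run positions passed, against a background of 0.00112% of all positions tested. In replicate 2, 0 of 10336 passed, against 0.000338%. At an unadjusted p below 0.05 there were 12 run positions (0.216%) in replicate 1 against a background of 0.335%, and 53 (0.513%) in replicate 2 against 0.45%. In both replicates at once 2564 run positions could be tested. Of these 0 passed with adjustment, against a background of 0.000809%, and 0 at the unadjusted threshold, against 0.0144%. No other tool was run for this test.

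No run position was unconverted in both replicates. Of the 50515 run positions listed in both, 0 had an unconverted read in each, which allows a share of up to 0.00594%. In the whole list 1038 of the 10999735 positions listed in both were unconverted in both (0.00944%), 679 of them isolated. These shares were not matched by depth. An unconverted read in either replicate was found at 153 run positions in 122 runs, which left 5789 runs (97.9%) without any. A single run had unconverted reads in both replicates, and it lay on LG9 (115529 to 115551 of LG9_WGA149_2, 23 positions). In replicate 1 it had 1 of 65 reads unconverted, at place 19, and in replicate 2 it had 2 of 115, at places 10 and 22. This run, also named after its values were seen, had low depth at every 3 bp: at places 3, 6, 9, 12, 15, 18 and 21 it had 1 or 2 reads in replicate 1 and 2 or 3 in replicate 2, where the highest position had 6 and 8 reads.

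Within the runs, unconverted reads were scattered in replicate 1 and partly bunched in replicate 2. In replicate 1 the 45 unconverted reads fell on 45 positions in 45 different runs (0.761% of runs). In replicate 2 the 108 reads fell on 108 positions, but in only 78 runs (1.32%), since 9 runs held several and together 39 of the positions (36.1%). In 7 of these runs at least 4 positions were unconverted, with 35 positions in all (32.4%). Pairs of adjacent run positions that were both unconverted numbered 0 in replicate 1 and 18 in replicate 2. In replicate 1 this was 0 of 47221 adjacent listed pairs in runs, against 36 of 3608054 over the whole list. In replicate 2 it was 18 of 53274 in runs, against 903 of 4278314 over the whole list. The replicates thus differed in the same direction over the whole list, and the difference was not particular to the runs. Such pairs were so rare in replicate 1 that the 0 in runs cannot be told apart from the whole list. With at most 1 unconverted read counted per run, an alternative added after the data were seen, the ratio against isolated positions in replicate 2 was 0.581 and that on unplaced sequences 0.888, in place of 0.805 and 1.30. Unconverted reads were discounted at run positions only and not at isolated positions, so these ratios could only fall.

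Every unconverted position in a run rested on exactly 1 unconverted read. The reads covering these positions had a median of 3 in replicate 1 (range 1 to 158) and 5 in replicate 2 (range 1 to 243). At 5 positions in replicate 1 and 11 in replicate 2 all reads present were unconverted.

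The run with the most unconverted positions was on LG7 (55654 to 55666 of LG7_WGA116_2, 13 positions). In replicate 2 its positions had 4, 1, 3, 3, 3, 3, 3, 5, 5, 7, 7, 5 and 6 reads, and 7 of the 55 reads (12.7%) were unconverted. The unconverted reads, 1 at each position, lay at places 2 to 5 and 11 to 13, in 2 unbroken blocks. In replicate 1 the run had 35 reads, of which 0 were unconverted.

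The other runs of this kind were unconverted in replicate 2 only as well. An 11-position run on LG2 (1666023 to 1666033 of LG2_WGA24_2) had 5 of 20 reads unconverted, in 1 block at places 4 to 8, and 0 of 15 in replicate 1. An 11-position run on LG3 (418837 to 418847 of LG3_WGA48_2) had 4 of 54 (7.41%), at places 1, 3, 8 and 9, and 0 of 21 in replicate 1. The blocks of neighbouring places were thus seen in some of these runs and not in all.

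Unplaced sequences held further cases with more reads. The run at 4792 to 4801 of LGUn_WGA1792_2 had 6 of 70 reads unconverted in replicate 2 (8.57%), at places 4, 5, 6, 8, 9 and 10, and 0 of 49 in replicate 1. The run at 44102 to 44111 of LGUn_WGA382_2 had 5 of 123 (4.07%), at places 1, 3, 5, 7 and 8, and 0 of 68 in replicate 1. Whether the unconverted reads of a run came from the same molecule was not tested, since the tables give sums per position and not single reads.

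**Figure D4:**
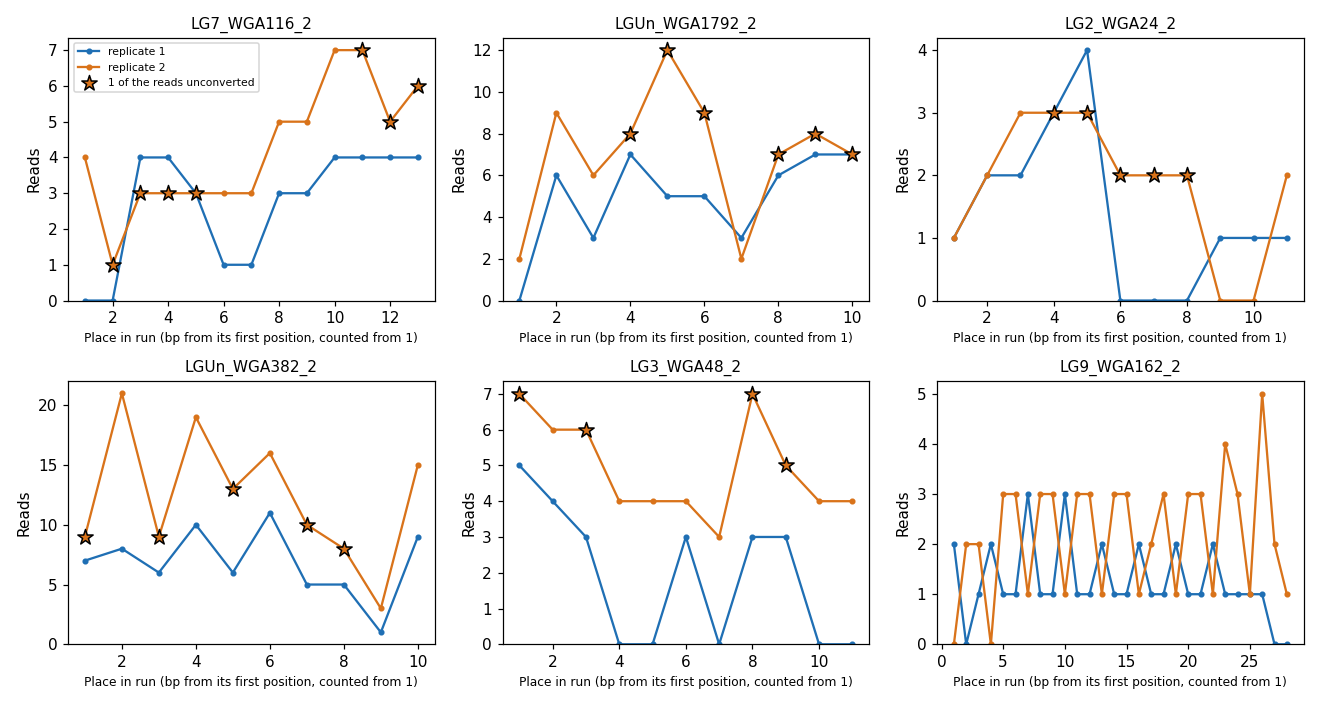
Reads per position along 6 runs in each replicate, with place in the run in bp from the first position on the horizontal axis; stars mark positions with 1 unconverted read. Stars occur only in replicate 2 in the 5 runs with the most unconverted positions, and the run on LG9 without stars shows the 3 bp alternation of depth.

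The 5 longest runs held no unconverted read, and neither did 97.9% of all runs. The run of 36 positions on LG7 (177268 to 177303 of LG7_WGA122_2) was covered by 107 reads at 35 positions in replicate 1 and by 136 reads at 34 positions in replicate 2, with at most 5 and 7 reads at a position. The next in length was a run of 33 positions on the X chromosome (58388 to 58420 of LG1=X_WGA10_2), with 23 reads at 16 positions and 55 reads at 29. The others had 32 positions on LGUn_WGA181_2 (100042 to 100073), 31 on LG10 (67637 to 67667 of LG10_WGA175_2) and 29 on LG8 (521643 to 521671 of LG8_WGA128_2). All reads in these 5 runs were converted in both replicates, but the reads were few. In all runs of at least 16 positions 10 of 15063 reads were unconverted in replicate 1 and 9 of 18776 in replicate 2. The median of the reads per position, summed over both replicates, was 7 in the longest and 2 in the next.

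A small number of runs was covered far more deeply than the rest. The median number of reads per position, summed over both replicates, had a median of 4 over all runs, with quartiles of 3 and 6, and 95% of runs were at or below 9. In 99 runs it was at least 20, and 15 of these lay on linkage groups. In 32 runs it was at least 50, and all 32 were on unplaced sequences. They took 10.7% of all reads in runs in replicate 1 and 9.84% in replicate 2. Of the reads in runs on unplaced sequences they took 16946 of 38832 in replicate 1 and 20077 of 48051 in replicate 2. The depth of runs on unplaced sequences given above was thus in large part that of these few.

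Non-conversion in the 32 deep runs was 1 of 16946 reads (0.00590%) in replicate 1 and 9 of 20077 (0.0448%) in replicate 2. The deepest run, at 355 to 364 of LGUn_WGA1955_2, had a median of 403 reads and 0 unconverted reads of 1497 and 1604. The next, at 3195 to 3204 of LGUn_WGA863_2, had a median of 393, with 0 of 1465 and 1 of 1600 unconverted. Then came the run at 1994 to 2003 of LGUn_WGA2013_2, which had a median of 321, with 1 of 1196 and 0 of 1520. In each of these runs at most 1 read was unconverted in a replicate.

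Depth changed sharply inside the deep runs. Along the deepest run the summed reads were 6, 357, 449, 249, 485, 513, 56, 485, 500 and 1. A position with less than 10% of the median of its run was found in 18 of the 32 deep runs. Neighbouring positions can lie on opposite strands, which are converted and read separately, and the tables do not give the strand.

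Several deep runs had nearly the same profile although they lay on different unplaced sequences. Of the 32 runs, 24 fell into 7 groups in which the summed reads along each run correlated with those of the first run of the group at 0.95 or more, read forward or in reverse. The correlation was taken over the few positions of a run and is a description. The largest group had 5 runs, and 10 runs matched in reverse order. In LGUn_WGA2013_2 the summed reads were 76, 353, 411, 289, 396, 404, 265, 363, 83 and 76. In LGUn_WGA406_2 they were 76, 390, 439, 261, 394, 403, 233, 378, 86 and 63, and in LGUn_WGA938_2 77, 367, 420, 261, 394, 397, 249, 377, 90 and 62. Not only the shape but also the number of reads was similar among these 3 runs.

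**Figure D5:**
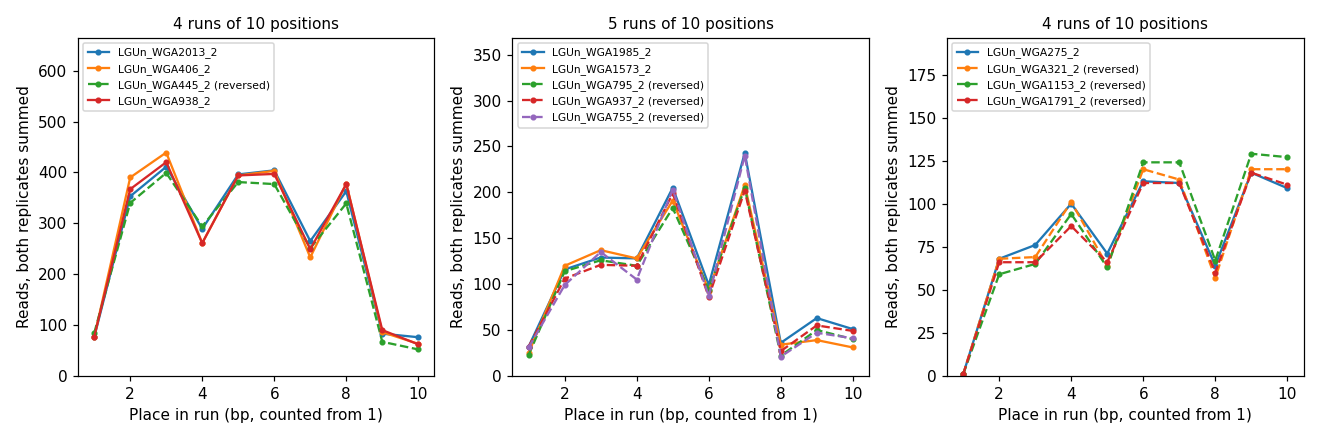
Reads per position, summed over both replicates, along the runs of 3 groups of deep runs on unplaced sequences; dashed lines are runs drawn in reverse order. The 4 runs with LGUn_WGA2013_2 and the 5 runs with LGUn_WGA1985_2 each share peaks and dips at the same places.

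The surroundings of the grouped runs were alike too. Within 100 bp on either side, 64.0% to 92.5% of listed offsets were shared with the first run of the group, with a median of 83.1%. First runs of different groups were also paired at the same length, each ungrouped deep run being taken as its own group. Over these 57 pairs the median share was 25.5%, with a range of 10.8% to 86.2%. The flanks had not been used to form the groups. One unplaced sequence, LGUn_WGA321_2, held 4 of the deep runs, and 2 of them belonged to the same group in opposite orientation. The runs of a group are thus not independent of each other, and 24 of the deep runs amount to 7 kinds of profile.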

How the data were processed

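DNA of the 2 egg pools was sequenced after bisulfite treatment with paired-end reads. The authors trimmed reads with Trimmomatic 0.32, aligned them to assembly version 3.0 with BSMAP 2.5, removed duplicates with Picard and called positions with the methratio script of BSMAP. The deposited values are whole-number counts of unconverted (column 3) and converted (column 4) reads per position. This reading of the columns follows from the values, as nearly all reads are in column 4. Positions without reads were not listed, so the gaps between runs depend on depth.

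The software was Python 3.11.15 with pandas 2.3.3 for the tables, scipy 1.17.1 and numpy 2.4.6 for the tests, and matplotlib 3.10.9 for the plots. All listed positions entered, without a minimum depth. Run against isolated positions was tested per replicate with an exact conditional test over 16 depth classes (ratio of observed to calculated unconverted reads, 95% exact Poisson interval), and single positions with an exact binomial test at 5 reads or more. The tests were checked on counts simulated with independent reads, a check that does not bear on reads shared by positions of a run. The threshold was an adjusted p of 0.05, and reads from 1 molecule were counted as independent, which makes p-values too small.

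The runs named by rule are the 5 longest, the 5 with the most unconverted positions in a replicate and the 3 deepest. The runs on LG9_WGA149_2 and LG9_WGA162_2 were added after their values were seen. Further deep runs are named as examples of groups with a like profile. The rule also provided for runs with a position that passed the single-position test or was unconverted in both replicates and for sequences with at least 5% of runs, of which there were none. 3 runs tied at 4 unconverted positions, and the first in the assembly was taken. The members and these rules were chosen with earlier results of these data known.

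Alternatives changed the minimum run length, the minimum depth, the comparison positions, the depth matching, the number of positions per run, the table used and the deepest positions. Intervals cover counting error only, and those of ratios take the calculated number as exact.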

Additional observations from a re-analysis of the deposited data

How the results depend on the processing

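Run and isolated positions were compared within each replicate, and the 2 replicates taken as pairs could not give a p below 0.5. The non-conversion level of runs moved by less than 1 SD of the 2 replicates under 12 alternatives. That SD, 0.0174 on a mean of 0.0406%, is a wide measure, and unplaced sequences alone, at 0.0568%, counted as unmoved. By replicate the level ranged from 0.0283% to 0.0529% when the other replicate was left out, a change that could not reach 1 SD. The count of 0 single positions was unchanged under 7. Several of these could not raise it, namely a higher background rate, runs of at least 15 positions and leaving out a replicate. The ratio against isolated positions kept its call under 10 of 15 alternatives in replicate 1 and 6 of 15 in replicate 2, and on linkage groups under 9 and 10. These counts include the odds ratio, which used the same test and could not change a call. Alternatives with fewer positions have fewer reads to test. The causes of the other changes were not tested.

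With runs of at least 8 positions, 22127 runs were found and 22 held several unconverted positions. The ratio on unplaced sequences was then 0.632 in replicate 1 and 0.752 in replicate 2, both past the threshold, and outer to inner 1.15 in replicate 2. With at least 15 positions there were 600 runs, and 2 with several. The ratio was then 1.07 for all runs, 0.748 on linkage groups and 3.07 on unplaced sequences in replicate 1, and 0.581 for all runs, 0.468 on linkage groups, 1.87 for outer to inner and 3.34 for linkage groups to unplaced runs in replicate 2. From the list of replicate 1, that of replicate 2, positions in both, and positions with 5 summed reads, 2758, 3637, 1392 and 230 runs were found.

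At 5 reads or more, replicate 1 gave 0.714 on linkage groups, 0.370 on unplaced sequences (past the threshold) and 1.66 for linkage groups to unplaced runs, and replicate 2 gave 0.914 for all runs. At 10 reads or more, 2 runs held several unconverted positions. Replicate 1 gave 0.323 for all runs, 0.804 on linkage groups and 1.79 for linkage groups to unplaced runs, and replicate 2 gave 0.943, 0.318 and 0.254. Against all positions outside runs the ratio was 0.743 for all runs and 0.745 on linkage groups in replicate 1, and 0.937 and 0.765 in replicate 2. With no listed position within 5 bp it was 0.513 on unplaced sequences in replicate 1, past the threshold. Without depth matching it was 0.809 in replicate 2.

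With 1 position per run it was 0.562 for all runs and 0.790 on linkage groups in replicate 1, and 0.841 and 0.732 in replicate 2, where linkage groups to unplaced runs gave 4.88. The last ratio had no value in replicate 1, as no unconverted read was left in unplaced runs. With runs from the same replicate's list, replicate 1 gave 0.355 on unplaced sequences (past the threshold) and 1.21 for linkage groups to unplaced runs, and replicate 2 gave 0.839 for all runs and 1.15 for outer to inner. Without the 0.1% deepest positions, replicate 2 gave 0.817 for all runs and 1.47 on unplaced sequences, the latter past the threshold.

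Of the alternatives added after the data were seen, runs of 2 to 9 as comparison gave 0.913 for all runs and 0.916 on linkage groups in replicate 1, and 1.13, 0.932 and, on unplaced sequences, 1.71 (past the threshold) in replicate 2. With at most 1 unconverted read per run, a limit that could only lower the ratio, unplaced sequences gave 0.888 in replicate 2. Odds ratios in place of ratios were given with the same exact test, so no call could change.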
